A study of Mus musculus with 16 samples.

Results

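The PDZ-LIM family of Z-disc proteins was examined through 7 genes: Ldb3, which encodes ZASP (also called Cypher), and Pdlim1, Pdlim2, Pdlim3, Pdlim4, Pdlim5 and Pdlim7. They were taken by name out of the 56953 genes of the count table, and their 94 splicing events by gene symbol out of 58107 distinct events in 3 deposited splicing tables. RNA came from the left ventricle of 16 Bl6J mice, males and females, with 4 mice and 4 libraries in each of 4 groups. WT Ctr mice were wild type and received AAV9 carrying the control construct pCAG-iCre-T2A-eGFP, in which the CAG promoter drives Cre recombinase and a green fluorescent protein. WT Tnpo3 mice were wild type and received AAV9 carrying Tnpo3 cDNA, whose promoter is not given in the sources used here. P635L Ctr and P635L Tnpo3 mice were homozygous for the RBM20 mutation P635L and received the same 2 viruses. At 4 weeks of age each mouse was given 1e12 viral genomes by tail-vein injection, and its heart was taken after a further 12 weeks, at 16 weeks.

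PDZ-LIM proteins join an N-terminal PDZ domain, which binds alpha-actinin at the Z-disc, to LIM domains at the C-terminus, which bind kinases and other signalling proteins. Ldb3, Pdlim5 (ENH) and Pdlim7 (enigma) form the enigma group, whose full-length forms carry several LIM domains and whose short forms carry none. Pdlim1 (CLP36), Pdlim2 (mystique), Pdlim3 (ALP) and Pdlim4 (RIL) form the ALP group, with a single LIM domain. The stretch between the PDZ domain and the LIM side is alternatively spliced in heart and skeletal muscle, and RBM20 is a nuclear splicing factor of the heart with Ldb3 among its known targets.

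Exons on which the splicing results turn are shown first, because each result is a choice between exons. Sequences were read from GENCODE M21 transcripts, 5′ to 3′ on the coding strand, and were matched to the deposited events by exon and intron lengths. Capitals mark the alternative exon, and lower case marks 15 bases of each neighbouring exon, except in the Pdlim5 lines. In Ldb3, an exon of 76 bases can be followed by a single exon of 359 bases (chr14:34298943-34299301 in GRCm39, minus strand), shown by its first and last 60 bases. It can instead be followed by exons of 23, 204 and 15 bases, and both paths end at an exon of 170 bases.
Ldb3 entry into the 359-base exon: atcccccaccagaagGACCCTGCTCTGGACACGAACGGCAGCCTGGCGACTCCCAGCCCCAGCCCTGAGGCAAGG
Ldb3 exit from the 359-base exon: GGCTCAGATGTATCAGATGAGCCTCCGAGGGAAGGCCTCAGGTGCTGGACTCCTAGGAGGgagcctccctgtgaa

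Pdlim5 has an exon of 15 bases (chr3:142012045-142012059, minus strand) between exons of 92 and 18 bases, and the 2 forms differ by these bases alone. In the Pdlim5 lines, lower case holds 15 bases of the 92-base exon, the whole 18-base exon and 15 bases of the next exon. Pdlim3 has an exon of 188 bases (chr8:46361506-46361693, plus strand), which M21 places in 1 of its 2 coding transcripts.
Pdlim5 with the 15-base exon: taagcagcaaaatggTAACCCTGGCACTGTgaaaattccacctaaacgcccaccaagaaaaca
Pdlim5 without the 15-base exon: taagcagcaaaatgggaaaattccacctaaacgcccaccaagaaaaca
Pdlim3 188-base exon: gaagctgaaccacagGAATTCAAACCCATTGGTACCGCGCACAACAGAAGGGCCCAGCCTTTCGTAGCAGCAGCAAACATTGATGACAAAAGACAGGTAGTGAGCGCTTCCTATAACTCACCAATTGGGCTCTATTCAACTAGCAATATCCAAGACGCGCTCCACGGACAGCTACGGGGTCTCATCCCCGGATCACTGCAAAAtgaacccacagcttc

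The exon lengths keep the reading frame comparable between the 2 Ldb3 paths. The 359-base exon leaves 2 bases over when divided by 3, and so do the 242 bases of the 23-, 204- and 15-base exons together and the 227 bases of the path without the 15-base exon. The 15-base exon of Pdlim5 is a multiple of 3. Across the family, an internal exon of 152 bases occurred in coding transcripts of 7 of the 7 genes, and internal exons of 37, 116, 121 and 181 bases were shared by Ldb3, Pdlim5 and Pdlim7.

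Library totals ran from 28493249 to 85922669 counts. In 3 libraries (2 of WT Ctr and 1 of WT Tnpo3) a single gene, ENSMUSG00000119584, held 20% to 22.6% of the counts, against 0.703% to 5.3% in the others, and a member's value without these libraries is given where a call changed. Xist counts exceeded the summed counts of Y-linked genes only in WT Ctr replicate 4 and WT Tnpo3 replicates 2 and 4. All P635L libraries lay the other way, so sex read from these genes was not balanced between the genotypes. Tnpo3 checked the labels: it rose by 2.84 on the log2 scale with its virus in WT hearts (SE 0.3, edgeR adjusted p = 0.000814) and by 3.38 in P635L hearts (SE 0.3, edgeR adjusted p = 1.49e-05). The 6 cardiomyocyte markers summed to 68400 to 81600 CPM (counts scaled to library size by edgeR) in WT Ctr and 58300 to 77600 CPM in WT Tnpo3. They summed to 49500 to 53600 CPM in P635L Ctr and 51500 to 61300 CPM in P635L Tnpo3. The P635L Ctr libraries lay below those of both WT groups, and 3 of the 6 markers fell and 0 rose in P635L Ctr against WT Ctr, with a median log2 fold change of -0.55. Their part in the members' changes was not tested. In bulk tissue, fewer cells of a type and less RNA per cell cannot be told apart.

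Positions are those of the deposited count table, in GRCm39. Ldb3 (ENSMUSG00000021798, chr14:34248560-34310639, minus strand) and Pdlim2 (ENSMUSG00000022090, chr14:70401667-70415130, minus strand) lie on the same chromosome. Pdlim3 (ENSMUSG00000031636, chr8:46338498-46372585) is the only member on the plus strand. Pdlim5 is ENSMUSG00000028273 (chr3:141945351-142101457), Pdlim1 is ENSMUSG00000055044 (chr19:40209617-40260286), Pdlim4 is ENSMUSG00000020388 (chr11:53945754-53959840) and Pdlim7 is ENSMUSG00000021493 (chr13:55643608-55661489). No member shares exon bases with a gene on the opposite strand, and Pdlim7 overlaps the microRNA gene Mir6945 on its own strand.

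Per kilobase of exon, Ldb3 was the most abundant member in WT Ctr hearts at 119 ± 20.7 CPM per kb (SD, n = 4), followed by Pdlim5 at 39.4 ± 10.7 CPM per kb (SD, n = 4). Pdlim1 and Pdlim7 came next at 13.3 ± 2.41 and 10.3 ± 2 CPM per kb (SD, n = 4 each), a gap within their spread. Pdlim4 was at 5.54 ± 1.26 CPM per kb (SD, n = 4). Pdlim2 and Pdlim3, at 3.12 ± 0.787 and 3.01 ± 0.252 CPM per kb (SD, n = 4 each), were the lowest and did not differ beyond their spread. All 7 genes passed the filter on low counts.

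Of the 7 members, Pdlim3 and Pdlim2 rose in P635L Ctr against WT Ctr and 0 fell, at an edgeR adjusted p under 0.05. Over all 18662 genes tested, 7.07% were called higher and 7.14% lower in that comparison, or 14.2% in either direction. In P635L Tnpo3 against P635L Ctr, Pdlim3 fell and no other member was called, where 2.25% of all genes were called lower and 3.88% were called in either direction. In P635L Tnpo3 against WT Ctr, Pdlim3 was higher, where 1.49% of genes were called higher and 3.07% in either direction. The median log2 fold change of the 7 members was 0.42 in P635L Ctr against WT Ctr, with all genes at -0.05, and -0.5 in P635L Tnpo3 against P635L Ctr, with all genes at 0.01. These comparisons share the P635L Ctr libraries.

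**Figure D1:**
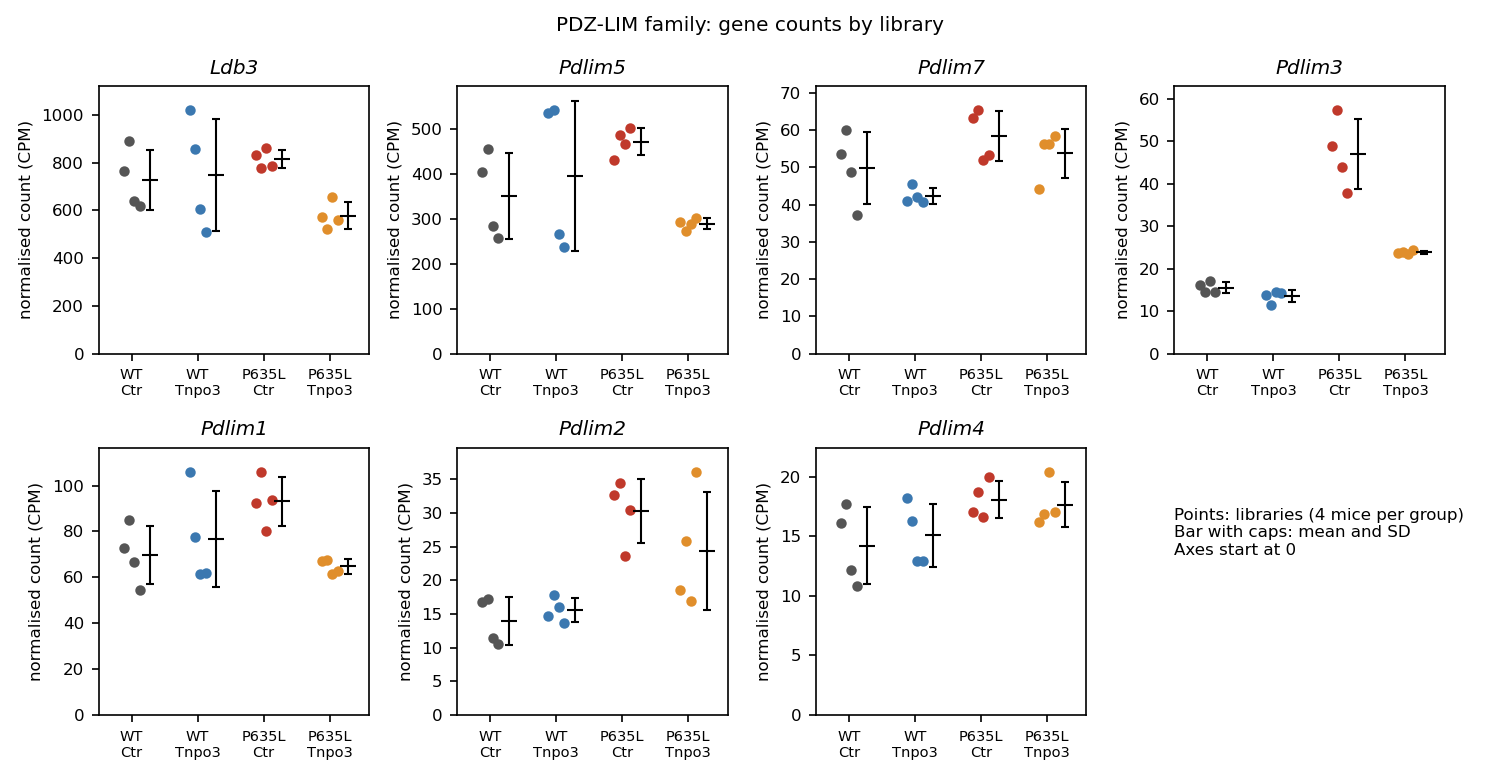
Normalised counts (CPM, linear axes from 0) of the 7 genes in each library, by group; points are libraries (4 mice per group) and bars with caps are the mean and SD. The 4 P635L Ctr libraries of Pdlim3 lie between 37.9 and 57.3 CPM, above every library of the other groups, and Ldb3 and Pdlim5 spread widely in the WT groups.

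Pdlim3 encodes ALP, an alpha-actinin-binding protein of the Z-disc and of intercalated discs. In WT Ctr it stood at 16.2, 14.4, 17 and 14.4 CPM in replicates 1 to 4. In P635L Ctr it stood at 49, 57.3, 44 and 37.9 CPM. In P635L Tnpo3 it stood at 23.8, 24, 23.4 and 24.3 CPM, between the other 2 groups and with no overlap with either. Over all genes, P635L Tnpo3 did not overlap WT Ctr in 11.7% and did not overlap P635L Ctr in 20.4%. The rise of Pdlim3 in P635L Ctr against WT Ctr was 1.6 on the log2 scale (SE 0.12, edgeR adjusted p = 1.44e-07), a 3.04-fold difference that held in all 4 mutant libraries. Against P635L Ctr, Pdlim3 fell by 0.98 in P635L Tnpo3 (SE 0.12, edgeR adjusted p = 0.000149). It remained above WT Ctr by 0.62 (SE 0.12, edgeR adjusted p = 0.00661). Without the 3 libraries rich in ENSMUSG00000119584 this last difference was 0.56 and was no longer called (edgeR adjusted p = 0.0732).

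WT Tnpo3 hearts held 13.7, 11.4, 14.4 and 14.3 CPM of Pdlim3, which overlapped WT Ctr. The change with the virus in WT was -0.21 (SE 0.12, edgeR adjusted p = 1). The interaction, which asks whether the virus effect differed between genotypes, was -0.77 for Pdlim3 (SE 0.17, edgeR adjusted p = 0.048), where 0.209% of all genes were called lower, 0.295% higher and 0.504% in all. The call was at the edge of the threshold: the value ranged from -0.87 to -0.68 over 23 alternatives, and the adjusted p from 0.00338 to 0.122, under 0.05 in 6 of them. It was -0.68 when the 3 libraries with the most ENSMUSG00000119584 were dropped, and the call was then lost (edgeR adjusted p = 0.0861).

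Pdlim2, an actinin-binding member also known as a nuclear regulator of NF-kappa-B, was the other gene called. Its WT Ctr libraries held 16.8, 17.2, 11.4 and 10.5 CPM, and its P635L Ctr libraries held 32.7, 34.4, 23.6 and 30.4 CPM. The mutant libraries all lay above the WT Ctr libraries, and 19.1% of all genes had groups that did not overlap in that comparison. The rise was 1.12 on the log2 scale (SE 0.22, edgeR adjusted p = 0.00204). P635L Tnpo3 libraries held 18.5, 25.9, 16.9 and 36.1 CPM and overlapped both groups. The log2 difference from P635L Ctr was -0.31 (SE 0.21, edgeR adjusted p = 0.476), and that from WT Ctr was 0.8 (SE 0.22, edgeR adjusted p = 0.0535). In the authors' deposited table, the latter was 0.83 with an adjusted p of 0.0273. No splicing event of Pdlim2 was listed.

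Fibroblast markers moved in the comparison in which Pdlim2 and Pdlim3 rose and in the one in which Pdlim3 fell. All 6 of 6 (Col1a1, Col1a2, Dcn, Pdgfra, Lum and Gsn) rose in P635L Ctr against WT Ctr, and all 6 fell in P635L Tnpo3 against P635L Ctr. Their summed level ran from 2300 to 2940 CPM in WT Ctr and from 2400 to 2910 CPM in WT Tnpo3. It ran from 3660 to 5200 CPM in P635L Ctr and from 2640 to 3280 CPM in P635L Tnpo3. Their part in the changes of Pdlim2 and Pdlim3 was not tested.

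Ldb3, Pdlim5 and Pdlim1 were not called in any of the 5 contrasts of the fit over all 16 libraries, but were called between the mutant groups in some other fits. Ldb3 was at 764, 890, 638 and 617 CPM in WT Ctr, at 832, 780, 862 and 788 CPM in P635L Ctr and at 574, 521, 656 and 562 CPM in P635L Tnpo3. The 2 mutant groups did not overlap, both overlapped WT Ctr, and the log2 difference was -0.5 (SE 0.18, edgeR adjusted p = 0.131). Pdlim5, which tethers protein kinase C to the Z-disc, was at 404, 456, 284 and 257 CPM in WT Ctr, at 431, 486, 467 and 502 CPM in P635L Ctr and at 293, 273, 289 and 301 CPM in P635L Tnpo3. The mutant groups were again apart, with a log2 difference of -0.71 (SE 0.24, edgeR adjusted p = 0.108). Pdlim1 ranged from 80.2 to 106 CPM in P635L Ctr and from 61.4 to 67.7 CPM in P635L Tnpo3, a log2 difference of -0.52 (SE 0.16, edgeR adjusted p = 0.0806). Its WT Ctr libraries ran from 54.6 to 85.1 CPM and overlapped both. In P635L Ctr against WT Ctr, Pdlim1 differed by 0.42 (SE 0.16, edgeR adjusted p = 0.0979), and the authors' deposited table gave 0.43 with an adjusted p of 0.0383.

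Over all genes, 20.4% had libraries of P635L Tnpo3 and P635L Ctr that did not overlap. A fit of these 2 groups alone called all 3 genes, with adjusted p of 0.00209 for Ldb3, 9.83e-05 for Pdlim5 and 0.00215 for Pdlim1, and called 2846 genes in all. Dropping the 3 libraries with the most ENSMUSG00000119584 also gave calls for all 3 (edgeR adjusted p = 0.0305, 0.0304 and 0.0303 in the same order), as did dropping the 3 libraries with high Xist (0.0469, 0.0312 and 0.0405). Both sets dropped held only WT libraries and shared WT Ctr replicate 4 and WT Tnpo3 replicate 4, so these fits are not separate support. DESeq2 called Pdlim5 (adjusted p = 0.0382) and Pdlim1 (0.0374), but not Ldb3. Most fits did not call them: of 24 alternatives, 3 called Ldb3, 5 called Pdlim5 and 6 called Pdlim1. The spread of these genes was larger in the WT groups: Ldb3 ran from 510 to 1020 CPM and Pdlim5 from 237 to 541 CPM in WT Tnpo3.

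Pdlim4 and Pdlim7 were not called in any of the 5 contrasts either. Pdlim4 ran from 10.8 to 17.7 CPM in WT Ctr and from 16.6 to 20 CPM in P635L Ctr, a log2 difference of 0.35 (SE 0.15, edgeR adjusted p = 0.144). Pdlim7, which binds receptor tyrosine kinases such as Ret through its LIM domains, ran from 37.2 to 60.1 CPM in WT Ctr and from 52 to 65.3 CPM in P635L Ctr. That difference was 0.23 (SE 0.13, edgeR adjusted p = 0.28). In WT Tnpo3 against WT Ctr, 0 of the 7 members were called by edgeR and 0 had an unadjusted p under 0.05, the lowest being 0.0962 for Pdlim7. Of all 18662 genes, 0.00536% were called there, which is Tnpo3 itself, and 597 had an unadjusted p under 0.05.

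**Figure D2:**
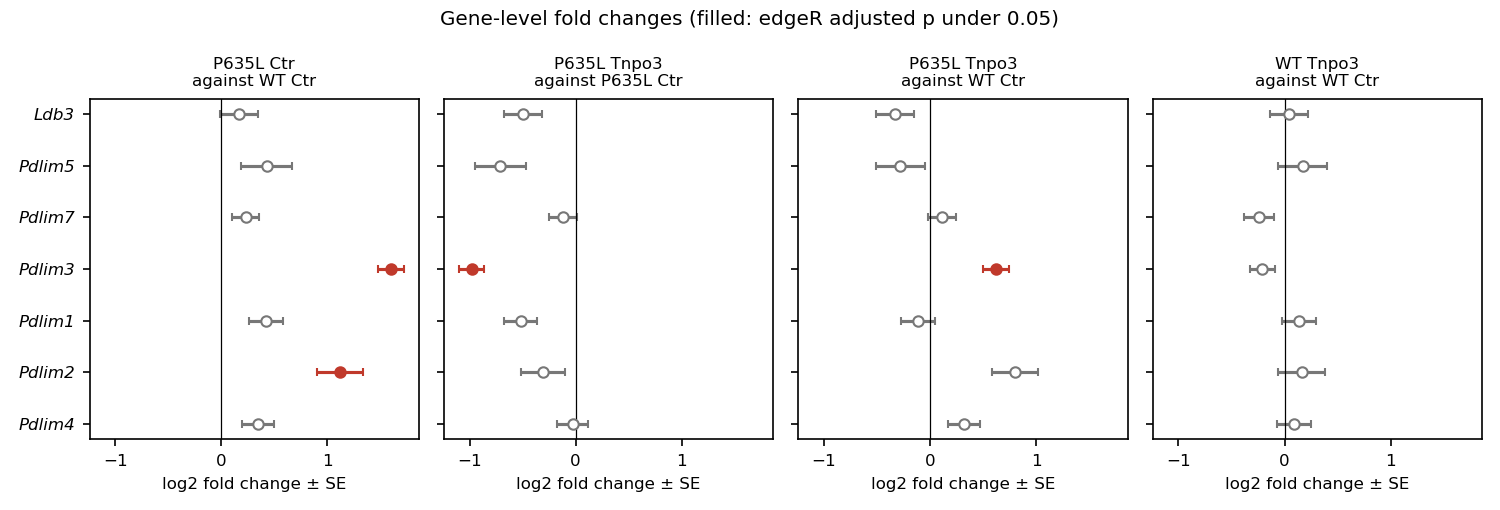
Log2 fold changes of the 7 genes in 4 comparisons (x axis, log2 fold change with its SE; filled red points have an edgeR adjusted p under 0.05). Pdlim3 is called at 1.6, -0.98 and 0.62 in the first 3 comparisons and Pdlim2 at 1.12 in the first, while the last comparison holds no filled point.

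Other Z-disc genes and kinase partners of the family were read from the same fit. Of 32 tested Z-disc partners, 4 rose and 2 fell in P635L Ctr against WT Ctr, with a median log2 fold change of 0.17 against -0.05 over all genes, of which 7.07% rose and 7.14% fell. Synpo2l, an actin- and actinin-binding Z-disc protein, rose by 1.66 (SE 0.14, edgeR adjusted p = 2.87e-07), from 139 ± 15.6 to 440 ± 73.1 CPM (SD, n = 4 each). The others that rose were Ankrd1, a stress-responsive titin-binding protein, at 2.35, Myoz1 at 1.1 and Xirp2 at 0.82. Those that fell were Tcap, the telethonin that caps titin, by 0.64 and Myoz2, a calsarcin that binds calcineurin, by 0.52. In P635L Tnpo3 against P635L Ctr, 3 of the 32 fell and 0 rose, where 2.25% of all genes fell and 1.63% rose. Synpo2l fell by 1.62, Xirp1 by 0.72 and Flnc by 0.57, the last at the edge of the threshold (edgeR adjusted p = 0.0497). Actn2, the alpha-actinin to which the PDZ domains bind, was not called in any contrast, and its WT Ctr and P635L Ctr levels were 2400 ± 152 and 2220 ± 144 CPM (SD, n = 4 each).

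Of 12 kinase and signalling partners, 2 rose and 2 fell in P635L Ctr against WT Ctr, where 7.07% of all genes rose and 7.14% fell. Prkca, the protein kinase C alpha, rose by 0.61 (SE 0.12, edgeR adjusted p = 0.00221), and Prkcd, another protein kinase C, rose by 0.77. Ret fell by 1.89 (SE 0.22, edgeR adjusted p = 1.03e-05), from 11 ± 3.4 to 2.96 ± 0.592 CPM (SD, n = 4 each), and Prkar2a, a regulatory subunit of protein kinase A, fell by 0.46. In P635L Tnpo3 against P635L Ctr, Prkca fell by 0.8 and Ret rose by 1.07, and no other partner was called, where 3.88% of all genes were.

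By likeness of log2 CPM over the 16 libraries (Pearson r among 12971 genes), the closest genes to Ldb3 were Fhl2 at 0.94, Nbn at 0.938 and Asb11 at 0.934. Those closest to Pdlim5 were Maea at 0.97, Prkar1a at 0.962 and Grsf1 at 0.96. Those closest to Pdlim3 were Gm30873 at 0.967, Gm12295 at 0.966 and Mmp23 at 0.965. Pdlim1 was closest to Prkar1a at 0.936, Yaf2 at 0.93 and Sulf2 at 0.913. Pdlim4 was closest to Babam2 at 0.889, Ccl27a at 0.882 and Ak6 at 0.879, and Pdlim7 to Zfp330 at 0.869, Nppb at 0.865 and Trim16 at 0.864. The libraries share their groups and depth, so these values describe likeness only.

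Splicing was read from the authors' rMATS tables, each of which compares a group with WT Ctr and gives an inclusion level in percent for 4 libraries per group in an order that is not stated. An event was called at an FDR under 0.05, a difference of 10 points or more, and junction reads averaging 10 or more per library in each group. Of the members' 69 events with enough reads in P635L Ctr against WT Ctr, 3 were called, where 2.52% of the events of all genes and 2.39% of their skipped exons were. In P635L Tnpo3 against WT Ctr, 1 of 71 was called, where the shares over all genes were 2.12% of events and 1.33% of skipped exons. In WT Tnpo3 against WT Ctr it was 1 of 53, with 0.941% of events and 0.82% of skipped exons over all genes. Calls fell on Ldb3, Pdlim5 and Pdlim3, and the events of Pdlim1, Pdlim4 and Pdlim7 gave none.

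The 359-base exon of Ldb3 lost inclusion in P635L Ctr hearts. Measured against the path that joins the 76-base exon directly to the 23-base exon, its inclusion was 96.5%, 96.3%, 96.8% and 94.3% in the WT Ctr libraries. In P635L Ctr it was 64.2%, 68%, 62.7% and 67.6%. In P635L Tnpo3 it was 91.9%, 93.1%, 92.9% and 96.2%. The P635L Ctr libraries lay apart from both other groups, and P635L Tnpo3 overlapped WT Ctr. The levels rested on 885 to 1100 junction reads per library in WT Ctr, 1138 to 2217 in P635L Ctr and 700 to 1135 in P635L Tnpo3.

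The difference between P635L Ctr and WT Ctr was -30.3 points at an rMATS FDR of 0, as listed in the authors' deposited table. Weighted limma, run on log2 inclusion over skipping reads, gave -3.63 (SE 0.23, limma adjusted p = 0.000664). It called 2 member events in that comparison, where it called 0.141% of all events, and 0 in the other 2 tables, where it called 0.0289% and 0%. Member events with an unadjusted limma p under 0.05 numbered 18 of 69 in P635L Ctr, 6 of 71 in P635L Tnpo3 and 7 of 53 in WT Tnpo3. The share of all events at that threshold was not computed for these comparisons with WT Ctr. The 18 events belonged to Ldb3, Pdlim5 and Pdlim3. Events of a gene can share junction reads, so such counts are not of independent events. Between P635L Tnpo3 and P635L Ctr, the level rose by 27.9 points, from 65.6% ± 2.59 to 93.5% ± 1.86 (SD, n = 4 each). The log2 ratio rose by 2.94 (SE 0.26, limma adjusted p = 0.000905), and the two-sided exact permutation test gave p = 0.0286, the smallest that 4 against 4 libraries allow. Of 61 member events tested, 13 had an unadjusted limma p under 0.05, as did 2034 of the 27995 events of all genes. Those 13 all belonged to Ldb3 and Pdlim5 and are not independent, so they do not describe the family as a whole. The 359-base exon was the 1 member event called, where 0.0643% of all events were called. The call is against the 23-base entry alone: the same exon set against a direct join from the 76-base to the 15-base exon was included at 99.4% in WT Ctr and in P635L Ctr. The event of the 23-base path was not listed for WT Tnpo3, so its interaction was not tested.

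**Figure D3:**
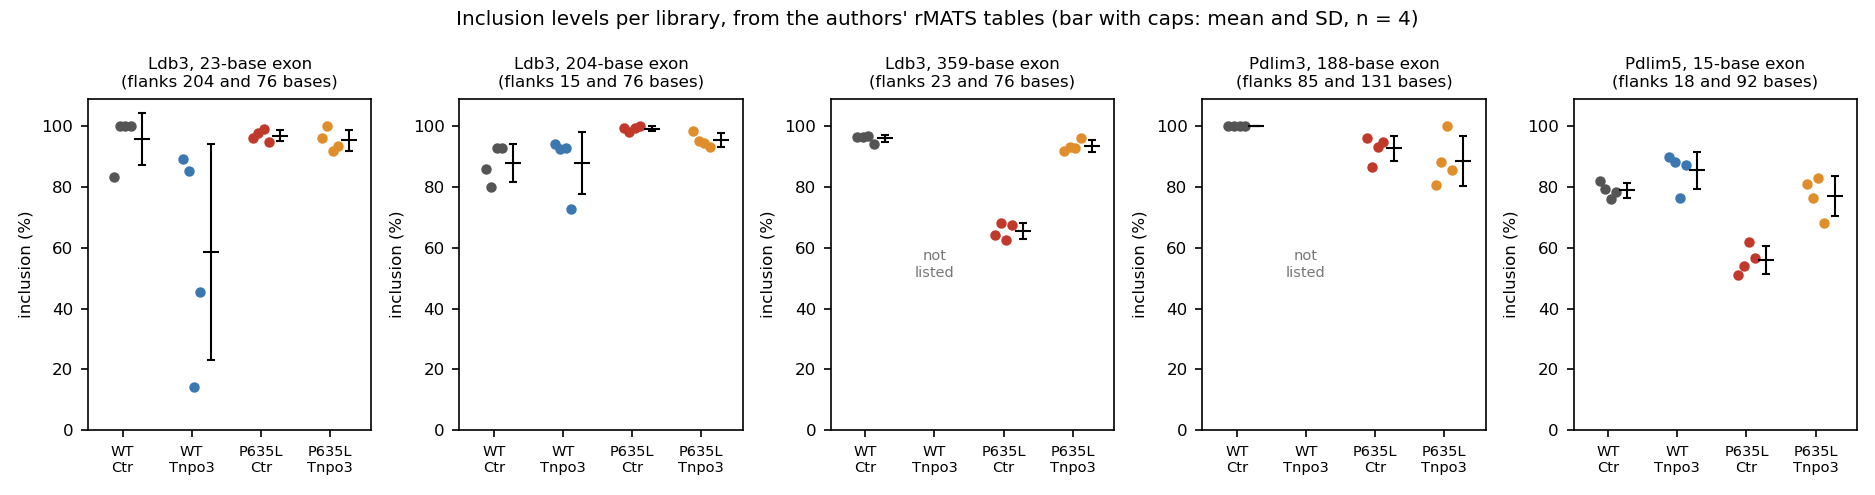
Inclusion level (percent, axes from 0) of the 5 called exons by group, with points for the listed libraries and bars with caps for the mean and SD (n = 4); the 2 exons not listed for WT Tnpo3 are marked. The 359-base exon of Ldb3 stands at 65.6% in P635L Ctr against 96% in WT Ctr, and the 15-base exon of Pdlim5 at 55.8% against 78.9%.

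The alternative path of Ldb3 was also read in all 4 groups, by a ratio chosen after the data had been seen. Reads that include the 15-base exon between the 204- and 170-base exons were counted per 100 reads that join the 359-base exon straight to the 170-base exon. The inclusion reads take in the joins of the 15-base exon to both neighbours, while the denominator is the direct join only. The ratio therefore overstates the use of the alternative path relative to the 359-base path and serves to compare groups. WT Ctr libraries gave 4.21, 2.27, 7.58 and 5.04 per 100, and WT Tnpo3 libraries gave 2.87, 2.26, 6.38 and 2.13. P635L Ctr libraries gave 77.5, 60.6, 96.7 and 42.6 per 100. P635L Tnpo3 libraries gave 12.8, 7.4, 16.1 and 10.9 per 100. P635L Ctr lay above all other groups, and the lowest P635L Tnpo3 library lay just under the highest of WT Ctr.

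The mean ratio was 14.5 times higher in P635L Ctr than in WT Ctr and 5.87 times higher in P635L Ctr than in P635L Tnpo3 (two-sided exact permutation p = 0.0286 each, the smallest possible). In P635L Tnpo3 it was 2.47 times that of WT Ctr (exact p = 0.0571), and in WT Tnpo3 it was 0.715 times (exact p = 0.343). The p-values of these 4 comparisons are unadjusted. The ratio was built around exons called in P635L Ctr against WT Ctr in the same libraries. Its p-value for that comparison is therefore not separate support, and the comparison with P635L Tnpo3 uses the same P635L Ctr libraries. With the reads that skip the 15-base exon added, the difference between P635L Tnpo3 and WT Ctr reached p = 0.0286 by the exact test at a ratio of 2.46. Counts of inclusion reads ranged from 33 to 90 per library in WT Ctr and from 909 to 1609 in P635L Ctr.

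Markers of skeletal muscle, in which this Ldb3 path is known to be used, were read beside it. Of 4 tested markers of a list of 7, 2 rose and 1 fell in P635L Ctr against WT Ctr, and 1 fell in P635L Tnpo3 against P635L Ctr. Tnnt3, a fast troponin T, ran from 0.784 to 1.33 CPM in WT Ctr, from 9.49 to 12.3 CPM in P635L Ctr and from 2.44 to 6.07 CPM in P635L Tnpo3. Tnni2, a fast troponin I, ran from 1.91 to 2.89, from 12.7 to 21.7 and from 7.9 to 17 CPM in the same groups. Ckm, the muscle creatine kinase that heart also expresses, set most of the summed level, which ran from 1150 to 1510 CPM in WT Ctr, 548 to 850 CPM in P635L Ctr and 812 to 1170 CPM in P635L Tnpo3. The defining fast myosin genes Myh1, Myh2 and Myh4 stood at or below 0.272 CPM in every library, with Myh4 at 0 in all libraries of WT Ctr, P635L Ctr and P635L Tnpo3.

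The 204-base exon of the alternative path was called in P635L Ctr, set against a direct join of the 76- and 15-base exons. Between the 15- and 76-base exons it was included at 86%, 80%, 92.9% and 92.9% in WT Ctr and at 99.5%, 98.1%, 99.3% and 100% in P635L Ctr. The groups did not overlap, and the difference was 11.3 points (rMATS FDR = 0.000832 in the authors' deposited table). The WT Ctr values rested on 36 to 81 reads per library, against 840 to 1462 in P635L Ctr. Weighted limma did not call it, at a log2 ratio of 4.35 (SE 0.84, limma adjusted p = 0.181). Its inclusion reads also hold the join to the 15-base exon that the whole path uses. Between its path neighbours of 15 and 23 bases, the 204-base exon was not called (limma adjusted p = 0.544). There it was included at 100%, 88.9%, 100% and 83.1% in WT Ctr and at 99.8%, 99.5%, 98.6% and 98.8% in P635L Ctr, with overlap.

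The 1 call in WT Tnpo3 against WT Ctr was the 23-base exon of Ldb3 between the 204- and 76-base exons. It was included at 83.2%, 100%, 100% and 100% in WT Ctr and at 89.2%, 85.3%, 14.2% and 45.3% in WT Tnpo3. The groups overlapped, and WT Tnpo3 had 4 to 22 reads per library. The call did not hold at a minimum of 20 reads, and weighted limma gave an adjusted p of 0.999.

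The LIM side of Ldb3 was described by reads of its 445-base exon per 100 reads counted as entering the 170-base exon. This was another ratio chosen after the data had been seen. Those counted were direct joins from the 359- and 204-base exons and the inclusion reads of the 15-base exon. Such inclusion reads also hold its join to the 204-base exon and were most numerous in P635L Ctr, at 909 to 1609 per library. The ratio was 15.1 ± 5.27 in WT Ctr, 10.2 ± 5.21 in WT Tnpo3, 22.1 ± 7.93 in P635L Ctr and 15.4 ± 1.89 in P635L Tnpo3 (SD, n = 4 each). All groups overlapped. P635L Ctr did not differ detectably from WT Ctr (exact permutation p = 0.229), nor P635L Tnpo3 from P635L Ctr (exact permutation p = 0.2). The 2 ratios of means were 1.46 and 0.698. With only the direct junction from the 359-base exon as denominator they moved to 2.4 and 0.451 (exact permutation p = 0.0857 each). Without the fourth listed P635L Ctr library the second was 0.603 (exact permutation p = 0.0286).

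**Figure D4:**
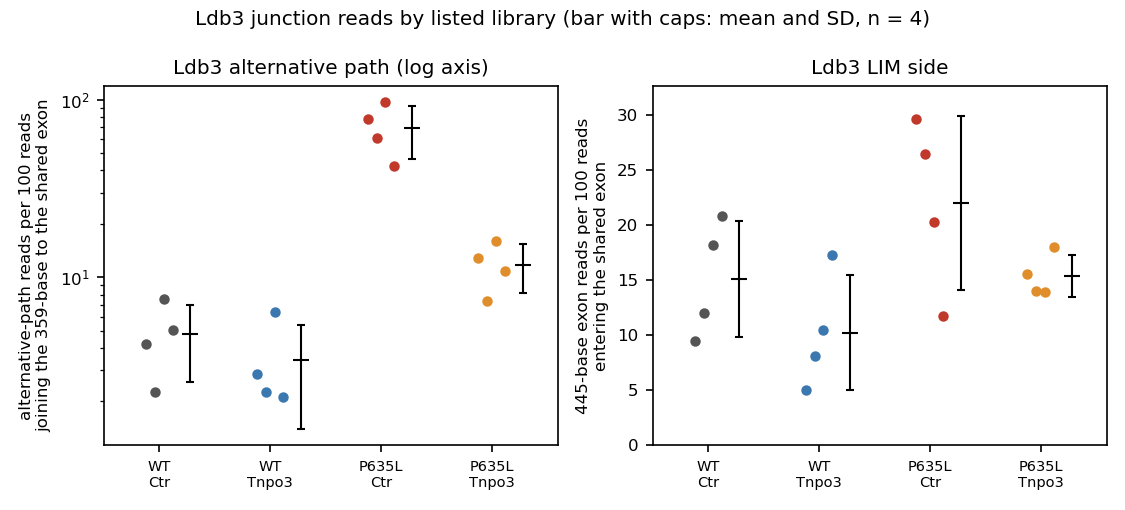
Left, reads of the alternative path of Ldb3 per 100 reads joining the 359-base to the 170-base exon (log axis). Right, reads of the 445-base exon per 100 reads counted as entering the 170-base exon (linear axis from 0). Points are listed libraries and bars with caps are the mean and SD (n = 4); on the left P635L Ctr spans 42.6 to 96.7, above all other groups, and on the right all groups overlap.

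The 15-base exon of Pdlim5 was the called event outside Ldb3 in P635L Ctr. Between its 92- and 18-base neighbours it was included at 82%, 79.2%, 76.1% and 78.2% in WT Ctr and at 50.9%, 54.1%, 61.8% and 56.5% in P635L Ctr. The groups did not overlap, and the level fell by 23.1 points at an rMATS FDR of 0 in the authors' deposited table. Weighted limma called it too, with a log2 ratio of -1.56 (SE 0.21, limma adjusted p = 0.0259). With single libraries left out, weighted limma called 2 member events in this comparison in 1 of 8 fits and 1 in the other 7. P635L Tnpo3 libraries were at 81%, 76.3%, 83.1% and 68.1%, all above P635L Ctr and overlapping WT Ctr. That difference was 21.3 points (two-sided exact permutation p = 0.0286, the smallest possible) and a log2 ratio of 1.45 (SE 0.26), which was not called over all events (limma adjusted p = 0.0978). WT Tnpo3 libraries were at 89.9%, 88.2%, 76.5% and 87.2%, a mean 6.6 points above WT Ctr with overlap between the groups. The call holds for these neighbours only. Between exons of 173 and 92 bases, the log2 ratio in P635L Ctr against WT Ctr was -0.48 (SE 0.34, limma adjusted p = 0.694). Between exons of 18 and 17 bases it was 0.23 (SE 1.1, limma adjusted p = 0.973).

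The 188-base exon of Pdlim3 was included at 100% in all 4 WT Ctr libraries. It was included at 96%, 86.5%, 93.3% and 94.9% in P635L Ctr and at 80.8%, 88.1%, 100% and 85.5% in P635L Tnpo3. Every P635L Ctr library lay under WT Ctr, and 1 P635L Tnpo3 library did not. The difference from WT Ctr was called in P635L Tnpo3, at -11.4 points (rMATS FDR = 0.000388), and fell short of the 10-point minimum in P635L Ctr, at -7.3 points (rMATS FDR = 1.37e-05), both in the authors' deposited tables. The mutant groups did not differ detectably in this event (exact permutation p = 0.371). A mutually exclusive record of the same exon, a different measure, stood at 89.5% ± 1.37 in P635L Ctr and 83.2% ± 3.39 in P635L Tnpo3 (SD, n = 4 each). Its exact permutation p was 0.0286, and weighted limma did not call it (limma adjusted p = 0.764). WT Ctr had 38 to 68 reads per library and P635L Ctr had 97 to 427, and the event was not listed for WT Tnpo3.

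Pdlim7 had an event just outside the call rule. Its 119-base exon between exons of 17 and 31 bases was included at 16.4% ± 3.18 in WT Ctr and 25.4% ± 2.32 in WT Tnpo3 (SD, n = 4 each), a difference of 9 points at an rMATS FDR of 0.00115 in the authors' deposited table. The groups did not overlap, and weighted limma gave an adjusted p of 0.999. In the interaction of virus and genotype, 0 of 48 member events were called by weighted limma, where 0.00783% of all events were called. Member events with an unadjusted limma p under 0.05 numbered 4, where 1400 of the 25549 events of all genes had one.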

How the data were processed

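Raw counts per gene were deposited, made by the authors with featureCounts 2.0.6 after STAR 2.7.9a on GRCm39, per the submitters' processing notes; strand use in counting is not given in the sources used here. The deposited DESeq2 tables hold log2 fold changes and p-values against WT Ctr, per the file headers. The deposited rMATS tables hold junction reads, p-values, FDR and an inclusion difference (a score from -1 to 1), per the file headers. Counts were tested with edgeR 4.0.16 (R 4.3.3; quasi-likelihood F test, TMM, filterByExpr, 1 mean per group over 16 libraries), with Benjamini-Hochberg adjustment over 18662 genes. Events were tested with limma 3.58.1 on log2((inclusion + 0.5)/(skipping + 0.5)), with precision weights. Tests were two-sided. In simulated data, edgeR recovered 61% of 2-fold and 89.9% of 4-fold changes over 18332 genes for P635L Ctr against WT Ctr, with 3.85% of calls false, and limma recovered 39% of inclusion changes of 0.2 and 93% of changes of 0.4 over 27995 events between the P635L groups, with 5.04% false. Likeness used log2(CPM + 0.5) for genes with a mean of at least 1. The named genes were the 7 members, and the named events were those called in at least 1 table. Members, lists and tests were chosen with earlier results of these data known. The genotype, virus and mice are as labelled, and each mouse gave 1 library. Replicate numbers were not used to pair samples. Alternatives covered scaling, filters, DESeq2 1.42.0, single libraries and call thresholds. Mutually exclusive exon records give 1 of their 2 exons and, apart from that of Pdlim3, were not described singly. The neighbours of 1 member and the sequence of 1 set of exons are not reported here.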

Additional observations from a re-analysis of the deposited data

Results flagged for a closer look

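The interaction of virus and genotype was -0.77 on the log2 scale for Pdlim3 (edgeR adjusted p = 0.048), at the edge of the threshold, and the adjusted p was under 0.05 in 6 of 23 alternatives. Pdlim7 in P635L Tnpo3 replicate 1 lay at 44.1 CPM, with the nearest library of its group at 56.3 CPM. The 204-base exon of Ldb3 between the 15- and 76-base exons was included at 72.7% in 1 WT Tnpo3 library, with the next at 92.6%. The 23-base exon of Ldb3 was included at 83.2% in 1 WT Ctr library and at 100% in the others. For normally distributed values, chance alone gives such a distant library in about 1 of 20 groups, a nominal rate that was not measured here. It does not hold for the 23-base exon, where the other WT Ctr libraries were tied at 100%.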

How the results depend on the processing

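The rise of Pdlim3 and of Pdlim2 in P635L Ctr and the fall of Pdlim3 in P635L Tnpo3 against P635L Ctr were called under 24 of 24 alternatives each. The log2 values ranged from 1.52 to 1.69, from 1 to 1.26 and from -1.07 to -0.86. Junction depth limits the Ldb3 alternative path in WT hearts and the Pdlim3 exon.

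Counts of genes changed moved as follows. For P635L Tnpo3 against P635L Ctr the count was 1482 without the libraries rich in ENSMUSG00000119584, 1282 without those with high Xist, 2846 with only these groups fitted and 1369 by DESeq2, and 282 to 1022 with single libraries left out. For P635L Tnpo3 against WT Ctr it was 319 without the rich libraries, 1100 by DESeq2 and 282 to 736 with single libraries left out. For WT Tnpo3 against WT Ctr edgeR gave 0 without the rich libraries (1720 at an unadjusted p under 0.05) and 0 without those with high Xist (1103 unadjusted), and it was 3 by DESeq2 and 1 to 3 with single libraries left out. For the interaction it was 146 with no filter on low counts, 322 without the rich libraries, 54 without those with high Xist, 410 by DESeq2 and 52 to 221 with single libraries left out.

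Member events called at a 5-point minimum were 8 in P635L Ctr, 2 in P635L Tnpo3 and 4 in WT Tnpo3, each against WT Ctr. The share of all events called at that minimum was not computed, so these counts cannot be set against it. A 20-point minimum left 0 in P635L Tnpo3, and a minimum of 20 reads left 0 in WT Tnpo3. Weighted limma left 0 in both, and 0 with single libraries left out, and gave 1 to 2 in P635L Ctr with single libraries left out. Between the mutant groups it gave 1 to 2. The alternative-path ratio ranged, with single libraries left out, from 12.4 to 18.1 for P635L Ctr over WT Ctr, from 0.149 to 0.196 for P635L Tnpo3 over P635L Ctr (exact p at or over 0.05 in 4 of 8, where P635L Tnpo3 had 3 libraries, at 0.165, 0.191, 0.149 and 0.175) and from 2.11 to 3.07 for P635L Tnpo3 over WT Ctr, which passed 0.05 at 2.78, without the second listed P635L Tnpo3 library. It was 2.46 there with skipping reads of the 15-base exon added. The LIM-side ratio of P635L Tnpo3 over P635L Ctr ranged from 0.603 (exact p = 0.0286) to 0.789 with single libraries left out and was 0.451 with the direct junction as denominator. That of P635L Ctr over WT Ctr ranged from 1.29 to 1.69 and was 2.4.

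With single libraries left out, the sign changed only in differences that were not called. In WT Tnpo3 against WT Ctr, Ldb3 ranged from -0.14 to 0.19 (-0.02 without WT Ctr replicate 3, -0.03 without WT Ctr replicate 4, -0.14 without WT Tnpo3 replicate 1 and 0 without WT Tnpo3 replicate 2). There Pdlim1 ranged from -0.06 to 0.28, Pdlim4 from -0.02 to 0.24 and Pdlim5 from -0.01 to 0.36, each negative without WT Tnpo3 replicate 1, where Pdlim4 was -0.01. In P635L Tnpo3 against WT Ctr, Pdlim1 ranged from -0.21 to 0.03 and Pdlim7 from -0.01 to 0.23. Pdlim7 had an interaction of -0.02 to 0.23, and Pdlim4 ranged from -0.11 to 0.02 in P635L Tnpo3 against P635L Ctr. Where the construction of an alternative does not show the cause, the cause was not tested.

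Same-numbered samples correlated between -0.27 and 0.6 in their deviations, so the numbers were not taken to pair them. With the replicate block, 2487, 677, 490, 1 and 113 genes were changed in the 5 contrasts, the Pdlim3 interaction was -0.77 (edgeR adjusted p = 0.0733) and Pdlim1 in P635L Tnpo3 against P635L Ctr was -0.52 (edgeR adjusted p = 0.0459). No block was fitted to events, whose tables do not state the library order.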
